A study of Drosophila melanogaster with 18 samples.

Results

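Whole adult flies of Drosophila melanogaster that carried UAS-dec2P384R behind the GR23E10-gal4 driver were compared with flies that carried the driver alone, using long reads from a Nanopore sequencer. The comparison took all Nanopore libraries labelled with either genotype, 3 per group, which is 6 of the 18 libraries in the series. The control genotype was GR23E10-gal4;+ and the mutant genotype was GR23E10-gal4;UAS-dec2P384R, so both groups carried the driver. Flies with the normal transgene, GR23E10-gal4;UAS-dec2WT, also had 3 Nanopore libraries. This group entered the same statistical fit and served to show where the mutant and the normal transgene differed. Flies lived at 25 °C, per the labels, under a cycle of 12 h light and 12 h dark, RNA was taken at zeitgeber time (ZT) 3, counted in hours from lights on, and about 70 whole animals went into an extraction. The labels call the libraries independent biological replicates and state neither sex nor age.

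Dec2 belongs to the bHLH factors that repress transcription, and the P384R change is known from people who sleep naturally short. In flies the transgene is driven through the Gal4/UAS system, in which the yeast factor Gal4 switches on any gene placed behind its UAS sites. GR23E10-gal4 is known for labelling neurons of the dorsal fan-shaped body that promote sleep. RNA of the whole animal was measured, while the driver is known to label few cells, and the transgene itself was not analysed here. In such bulk RNA, fewer cells of a type and less RNA per cell cannot be told apart.

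The 3 control libraries held between 3602232 and 4156725 estimated counts on genes, and the dec2P384R libraries held 1922380, 3566122 and 2391381 for replicates 1, 2 and 3. Over all genes tested, Spearman correlations ran from 0.970 to 0.978 between control libraries and from 0.955 to 0.966 between dec2P384R libraries, while pairs across the groups lay between 0.954 and 0.963. Transcripts of testis and accessory gland genes were abundant in all 6 libraries (summed levels of 7836 to 10270 and of 30890 to 41910 CPM, counts scaled to library size). Of 29 measured ovary and eggshell genes, 6 had no count in any of the 6 libraries, and the whole list summed to no more than 75.2 CPM. Yolk proteins summed to 8.33 to 12.4 CPM. Markers of nerve, photoreceptors, muscle, fat body and gut were all present. Driver control replicate 3 stood apart in heat shock transcripts and dec2WT replicate 1 in clock transcripts, with values given beside the lists concerned.

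In dec2P384R flies, 4 trypsin genes, a pair of lysozymes, a pair of UDP-glycosyltransferases and a pair of neighbouring aldo-keto reductases fell, while a peptidoglycan-degrading amidase, 3 lectin-domain proteins, the receptor gene mthl8 and the actin-binding gene Unc-115b rose. These are Nanopore values of single genes. Summed over close copies, 6 trypsins overlapped between the groups, and LysB with LysD and LysE was higher in dec2P384R. Unc-115b and the lysozyme LysB did not pass on Illumina, a second platform. Of 11393 genes tested, 54 passed an adjusted p of 0.05 (0.474%; edgeR's quasi-likelihood test with Benjamini-Hochberg adjustment over all genes tested). Of these, 25 rose (0.219%) and 29 fell (0.255%). At an unadjusted p under 0.05 there were 665 genes higher (5.84%) and 591 lower (5.19%), together 11% of those tested. The control and dec2P384R libraries did not overlap for 1931 genes (16.9%), among them all 54 that passed the test. All 54 are protein coding, and 37 have only a CG number as their symbol. Every rise was of at least 2-fold, as were 25 of the 29 falls, and the median log2 fold change of all genes tested was −0.0017. DESeq2 on the same counts gave 103 genes, 49 higher and 54 lower, and of the 54 genes above, 52 were among them. Leaving out 1 library moved the count to between 27 (without dec2P384R replicate 2) and 70 (without dec2P384R replicate 3 or dec2WT replicate 2), and it was 35 without driver control replicate 1 or 2 or without dec2P384R replicate 1.

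**Figure D1:**
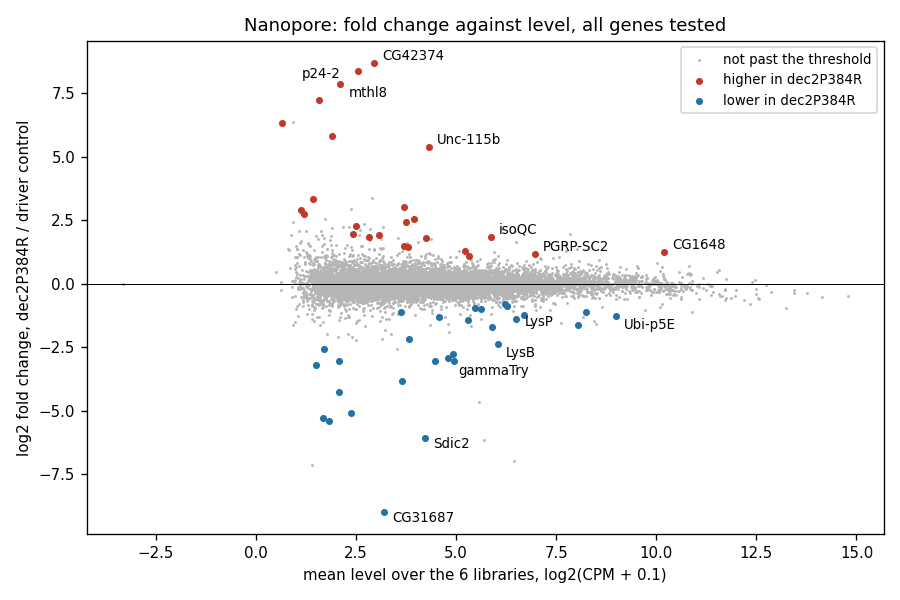
Log2 fold change of dec2P384R over driver control (vertical axis) against the mean level over the 6 libraries, as log2(CPM + 0.1) (horizontal axis), for all 11393 genes tested on Nanopore. The 25 genes that rose are red, the 29 that fell are blue and the others grey. The grey points spread most at low levels. Fitted folds of genes without counts in 1 group, such as CG42374 and CG31687, depend on a constant added by the fit and are no measure of size.

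Of 152 tested genes that the deposited annotation gives a trypsin domain, 4 fell and none rose (2.63%, beside 0.255% of all genes lower), and their median log2 fold change was −0.06. This and the other domain families counted below were chosen because at least 2 of their genes passed. A raised share therefore follows from that choice. Trypsins are serine proteases that midgut cells secrete to digest dietary protein, and several near-identical trypsin genes stand in a tight cluster on chromosome 2R. gammaTry (FBgn0010359, 2R, 11349061 to 11349870) stood at 52.6, 53.5 and 41.7 CPM in the control libraries and at 6.39, 5.69 and 7.71 CPM in the dec2P384R libraries. The groups did not overlap, and the log2 fold change was −2.91 ± 0.22 (SE, n = 3 per group; edgeR adjusted p = 2.69e-05). deltaTry (FBgn0010358, 2R, 11355319 to 11356128) went from 35.9, 31.7 and 33.6 CPM to 13.3, 12.2 and 16.3 CPM, a log2 fold change of −1.29 ± 0.18 (edgeR adjusted p = 0.00395). The 2 other cluster members that passed the test, CG30031 and CG30025, are named here after their values were seen. CG30031 had a log2 fold change of −2.74 ± 0.27, and CG30025 had 70 counts in the controls together against 1 in the mutants, a ratio of 50.6 (exact 95% interval 8.79 to 2030, counting error only). The call of CG30025 was lost without dec2P384R replicate 2 (edgeR adjusted p = 0.179) and held in 4 of 9 fits that each left out 1 library. Summed over gammaTry, deltaTry, CG30025 and CG30031, the level was 161, 148 and 114.7 CPM in the controls and 31.0, 23.0 and 32.5 CPM in dec2P384R. These 4 genes are those that passed, so a lower sum follows from their choice. alphaTry and betaTry, further members of the family, lay on opposite sides without passing the test. alphaTry had a log2 fold change of −0.55 ± 0.18 (unadjusted p = 0.0104, adjusted p = 0.282) and betaTry of 0.55 ± 0.21 (unadjusted p = 0.0208, adjusted p = 0.366). Their sum overlapped between the groups, at 6721, 7877 and 6190 CPM in the controls and 6389, 6046 and 7527 CPM in dec2P384R. With all 6 genes added together the groups overlapped as well, at 6883, 8024 and 6305 CPM against 6420, 6069 and 7560 CPM. Where reads of close copies are split between genes by estimation, as here, the single values are less certain than the sums.

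Of 30 tested members of the list of digestive serine proteases, 2 fell and none rose. The list's median log2 fold change was −0.03, beside −0.0017 over all genes. On Illumina, the second platform described below, 5 of 31 tested members fell and 1 rose, with a median of −0.428. Other members moved on Nanopore without passing the test. Jon99Cii, a chymotrypsin-like Jonah protease, stood at 1205, 1094 and 1115 CPM in the controls against 615, 592 and 473 CPM (log2 fold change −1.02 ± 0.24, edgeR adjusted p = 0.111). Its relative Jon99Ci differed the other way, at 118, 193 and 125 CPM against 426, 453 and 239 CPM (log2 fold change 1.36 ± 0.29, adjusted p = 0.0756). On Illumina Jon99Cii passed as lower (log2 difference −0.994, limma adjusted p = 0.0185). Jon99Ci did not pass there (0.826, limma adjusted p = 0.225).

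Lysozymes cut the peptidoglycan of bacterial cell walls, and in flies several act in the digestive tract. LysB (FBgn0004425, 3L, 1207371 to 1207981) stood at 128, 106 and 94.3 CPM in the controls and 24.1, 21.1 and 19.3 CPM in dec2P384R, without overlap. Its log2 fold change was −2.36 ± 0.17 (edgeR adjusted p = 2.58e-05). LysP (FBgn0004429, 3L, 1218082 to 1218696), known from the salivary gland, stood at 127, 131 and 136 CPM against 60.5, 46.1 and 44.5 CPM, with a log2 fold change of −1.39 ± 0.18 (adjusted p = 0.00349). The other tested members did not pass, and they differed from each other in direction. LysD was at 893, 984 and 750 CPM in the controls and 1330, 1375 and 1420 CPM in dec2P384R (log2 fold change 0.65 ± 0.15, unadjusted p = 0.00105, adjusted p = 0.113), and LysE was at 158, 155 and 123.3 CPM against 96.8, 76.4 and 104 CPM (−0.66 ± 0.16, adjusted p = 0.141). LysB, LysD and LysE are close copies. Their summed level was 1179, 1245 and 968 CPM in the controls and 1451, 1473 and 1544 CPM in the mutants, so the sum was higher in dec2P384R while LysB itself fell. LysB also lies within mwh on the same strand; mwh did not pass the test (log2 fold change −0.21 ± 0.34, adjusted p = 0.860).

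PGRP-SC2 (FBgn0043575, 2R, 8716950 to 8717695) is an amidase that degrades peptidoglycan and dampens the immune response of the gut. It rose from 72.9, 82.4 and 74.2 CPM to 177, 157 and 185 CPM, a log2 fold change of 1.18 ± 0.14 (edgeR adjusted p = 0.0012), and the groups did not overlap. Of the 12 tested peptidoglycan recognition proteins it was the 1 that passed, and the list's median was 0.26. C-type lectins are sugar-binding proteins, many of them secreted. Of 30 tested genes that the deposited annotation gives a C-type lectin domain, 3 rose and none fell (10%), with a median log2 fold change of 0.27. These were CG15818 (log2 fold change 1.79 ± 0.30), CG15358 (1.30 ± 0.25) and CG11211 (1.09 ± 0.15), all named after their values were seen. The call of CG15818 held in 6 of 9 fits without 1 library (edgeR adjusted p of up to 0.0895, without dec2P384R replicate 1) and that of CG15358 in 3 of 9 (up to 0.225, without driver control replicate 1). CG11211 stood at 22.5, 25.5 and 29.0 CPM in the controls and 51.6, 58.5 and 53.5 CPM in the mutants. CG31832 (FBgn0051832, 2L, 15030928 to 15031750), which carries a fibrinogen-like domain, rose from 2.15, 3.07 and 3.49 CPM to 24.1, 30.3 and 14.6 CPM (log2 fold change 3.01 ± 0.37, adjusted p = 0.00213).

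**Figure D2:**
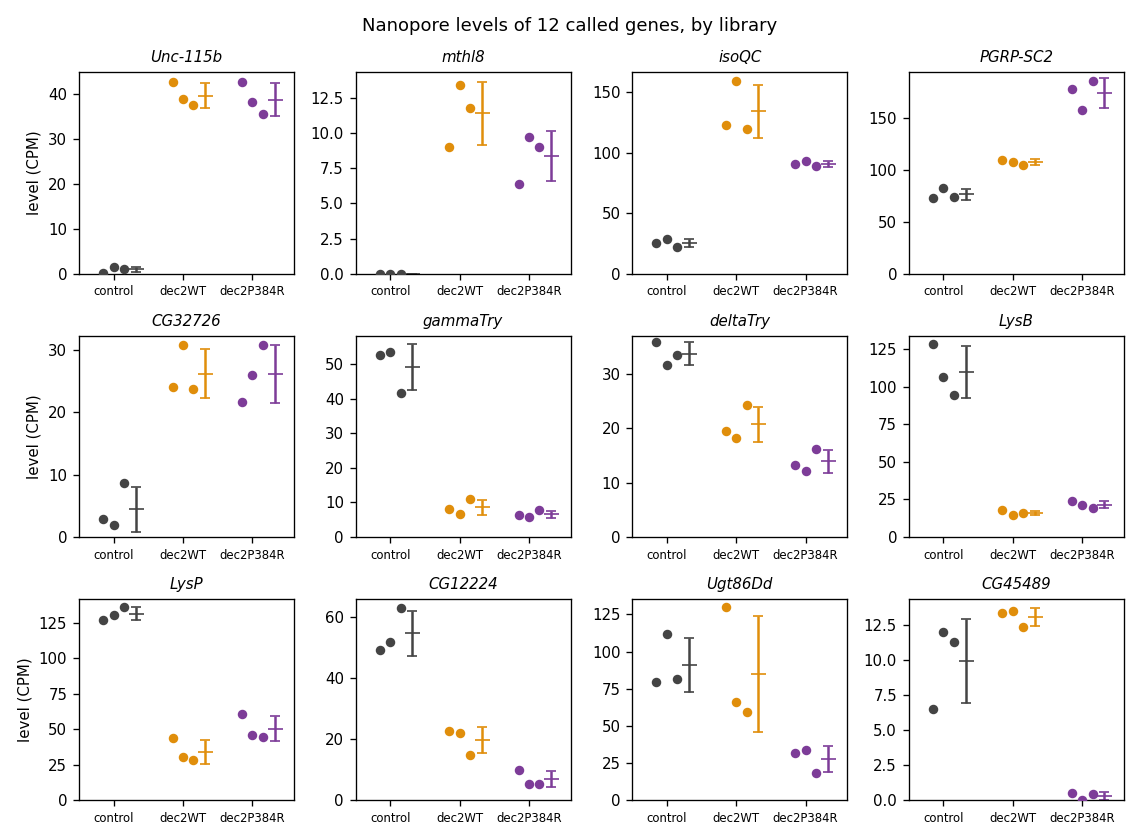
Nanopore level in CPM (vertical axis, from 0 in each panel) of 12 genes that passed the test, by genotype: driver control (grey), dec2WT (orange) and dec2P384R (purple). Points are the 3 libraries of a group, and the dash with bars beside them is the mean ± SD. For CG45489 the dec2WT libraries sit with the controls and the dec2P384R libraries near 0, while for gammaTry and LysB both transgenic groups sit below the controls.

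UDP-glycosyltransferases attach sugars to foreign and fatty compounds so that they can be excreted. CG17322 (FBgn0027070, 2L, 18826770 to 18829059) stood at 24.9, 24.3 and 19.6 CPM in the controls and 5.90, 4.61 and 4.71 CPM in dec2P384R, with a log2 fold change of −2.19 ± 0.22 (edgeR adjusted p = 0.000396). Ugt86Dd (FBgn0040256, 3R, 11126597 to 11128328) stood at 79.6, 112 and 81.4 CPM against 31.95, 33.6 and 17.98 CPM, with a log2 fold change of −1.69 ± 0.31 (adjusted p = 0.0310). Neither gene's groups overlapped. The fall of Ugt86Dd passed the test in 3 of 9 fits that each left out 1 library, and its adjusted p was highest, 0.125, without driver control replicate 2. Of the 12 tested genes on the list of UDP-glycosyltransferases these 2 fell and none rose, with a median of −0.05. Of 23 tested genes that the deposited annotation gives this domain, the same 2 fell and none rose (8.7%). Their median was 0.077.

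CG12224 and CG3397 are neighbours on 3R, 476 bases apart, and the deposited annotation gives both an aldo-keto reductase domain, found in enzymes that reduce aldehydes and ketones. CG12224 (FBgn0037974, 3R, 11980704 to 11982622) fell from 49.3, 51.9 and 63.2 CPM to 9.83, 5.42 and 5.14 CPM (log2 fold change −3.06 ± 0.25, edgeR adjusted p = 6.03e-05). CG3397, named after its values were seen, had 74 counts in the controls together and 1 in the mutants, a ratio of 53.5 (exact 95% interval 9.3 to 2140, counting error only). Among 13 tested genes with this domain, these were the 2 that passed, and the median was −0.11. The short-chain dehydrogenase domain was found in 1 gene that rose and 1 that fell, out of 44 tested. CG31809 (FBgn0051809, 2L, 16853620 to 16858714) rose from 2.87, 0.922 and 1.61 CPM to 9.83, 7.59 and 10.7 CPM (log2 fold change 2.28 ± 0.40, adjusted p = 0.0217), and passed in 4 of 9 fits without 1 library (adjusted p of up to 0.102, without driver control replicate 2). Of 75 cytochrome P450 genes, oxidases of the same pathways, none passed, and 7 were higher and 10 lower at an unadjusted p under 0.05. Cyp6w1 stood at 315, 380 and 184 CPM in the controls and 75.7, 100 and 129 CPM in dec2P384R (log2 fold change −1.53 ± 0.49, adjusted p = 0.257). On Illumina 7 of 78 tested P450 genes fell and 1 rose, with a median of −0.034. Cyp6w1 was among those that fell there (log2 difference −1.337, limma adjusted p = 0.00377).

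Among receptors and peptides, mthl8 and AstCC rose from a control level of 0. mthl8 (FBgn0052475, 3L, 22428 to 26308) encodes a methuselah-like receptor of the G protein-coupled kind. No control library held a count, and the mutants held 6.39, 9.75 and 8.99 CPM (70 counts in all). With 3 counts in each control library taken as the detection floor, this was at least 10.3-fold higher (edgeR adjusted p = 0.000396). Of 11 tested methuselah receptors mthl8 was the 1 that passed, and the median of the family was 0.05. Its relatives mthl10 and mthl4 had log2 fold changes of −0.58 ± 0.19 and −0.72 ± 0.30 without passing (adjusted p = 0.281 and 0.406).

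AstCC (FBgn0032337, 2L, 11083459 to 11085229) encodes a neuropeptide related to allatostatin C. It had no control count and 23 mutant counts, at 1.47, 2.17 and 5.14 CPM, and was at least 3.59-fold higher (adjusted p = 0.0389). With so few reads the call was fragile: it passed in 1 of 9 fits without 1 library, with an adjusted p of 0.155 without driver control replicate 1. On Illumina AstCC passed as higher, at low levels of 0.052 ± 0.061 FPKM in the controls and 1.23 ± 0.65 FPKM in dec2P384R (SD, limma adjusted p = 0.00794). The other 26 tested neuropeptides did not pass, and the list's median was −0.05. Dh31, a diuretic hormone of gut and brain cells that also acts on sleep, was at 35.2, 33.8 and 28.5 CPM against 20.2, 16.5 and 24.4 CPM (log2 fold change −0.69 ± 0.19, unadjusted p = 0.00307, adjusted p = 0.181).

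Of genes for the cytoskeleton and the secretory path, Unc-115b had the smallest p-value of the whole comparison. It encodes a LIM-domain protein of a kind that binds actin. Unc-115b (FBgn0260463, 3R, 9687060 to 9692775) stood at 0.239, 1.54 and 1.08 CPM in the controls and 42.8, 38.2 and 35.5 CPM in dec2P384R, a log2 fold change of 5.37 ± 0.30 (edgeR adjusted p = 2.35e-06). The gene p24-2 (FBgn0053105, 3R, 9687402 to 9692794), of a family of cargo receptors between endoplasmic reticulum and Golgi, lies almost entirely within the same interval on the same strand. It had no control count and 6.39, 19.2 and 8.99 CPM in the mutants, at least 14.2-fold higher (adjusted p = 0.00316). Reads of these overlapping genes cannot be assigned to one of them with certainty, but their sum went from 0.239, 1.54 and 1.08 CPM to 49.2, 57.4 and 44.5 CPM. The related genes Unc-115a (log2 fold change 0.17 ± 0.16, adjusted p = 0.731) and eca (−0.10 ± 0.15, adjusted p = 0.846) did not pass.

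isoQC (FBgn0036999, 3L, 20474466 to 20477003), a glutaminyl cyclase that modifies the ends of secreted peptides, rose from 25.4, 28.9 and 22.03 CPM to 90.4, 93.2 and 88.6 CPM (log2 fold change 1.84 ± 0.17, adjusted p = 0.000184). CG5969, which overlaps it on the same strand, stood at 22.8 to 29.8 CPM in the controls and 26.1 to 30.6 CPM in the mutants. The second glutaminyl cyclase, QC, had a log2 fold change of 0.23 ± 0.20 (adjusted p = 0.717). Npc2e (FBgn0051410, 3R, 10053332 to 10054348), of a family of sterol-binding proteins, was at 1.67, 4.30 and 6.99 CPM against 24.6, 33.3 and 9.42 CPM (log2 fold change 2.43 ± 0.47, adjusted p = 0.0442). It passed in 3 of 9 fits without 1 library, with an adjusted p of up to 0.241, without dec2P384R replicate 2. Sep5, a septin, and AANATL4, of a family of acetyltransferases, rose at low levels (3.72 ± 1.04 and 4.7 ± 2.46 CPM in the mutants, SD, n = 3) and are named after their values were seen. Each passed in 5 of 9 fits without 1 library, with an edgeR adjusted p of 0.18 for Sep5 without driver control replicate 1 and of 0.207 for AANATL4 without dec2P384R replicate 2.

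Ubi-p5E (FBgn0086558, X, 6276876 to 6279647), a gene of tandem ubiquitin units, fell from 718, 776 and 660 CPM to 327, 240 and 341 CPM. Its log2 fold change was −1.25 ± 0.22 (edgeR adjusted p = 0.0217), and it passed in 4 of 9 fits without 1 library (adjusted p of up to 0.126, without dec2P384R replicate 2). The other polyubiquitin gene, Ubi-p63E, had a log2 fold change of −0.35 ± 0.19 (adjusted p = 0.513). Sdic2 (FBgn0053497, X, 20181590 to 20186487) is 1 of several tandem copies of a sperm dynein chain. It stood at 21.3, 70.1 and 17.7 CPM in the controls and was at 0, 0 and 1.71 CPM in dec2P384R (log2 fold change −6.07 ± 0.87, adjusted p = 0.00507; 0.0645 without dec2P384R replicate 2). The copy Sdic1 stood at 21.5 to 29.6 CPM in the controls and 19.8 to 28.7 CPM in the mutants. All 4 measured copies together summed to 53.6, 98.7 and 50.8 CPM against 26.1, 20.3 and 30.8 CPM, without overlap.

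Several of the largest changes were in genes known only by a number. CG31687 (FBgn0051687, 2L, 20450225 to 20456978) had 16.3, 9.53 and 29.0 CPM in the controls and no count in any dec2P384R library, at least 15.3-fold lower (edgeR adjusted p = 0.00388). Its neighbour CG31683 (FBgn0051683, 2L, 20447734 to 20449964), 261 bases away, fell from 27.3, 29.5 and 13.2 CPM to 3.44, 1.63 and 0 CPM (log2 fold change −3.82 ± 0.55, adjusted p = 0.00507; 0.0645 without dec2P384R replicate 2). CG33665 (FBgn0053665, X, 6478138 to 6478849) fell from 43.0, 32.6 and 41.1 CPM to 4.92, 1.896 and 8.56 CPM (log2 fold change −3.03 ± 0.33, adjusted p = 0.000693). In each of these genes all mutant libraries lay below all controls.

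CG45489 (FBgn0267045, X, 19928416 to 19929178) had 108 counts in the controls, at 6.46, 12.0 and 11.3 CPM, and 2 in the mutants, a ratio of 39 (exact 95% interval 10.5 to 326, counting error only; edgeR adjusted p = 0.000696). CG45487, 13135 bases away and named after its values were seen, rose instead, with a log2 fold change of 1.83 ± 0.34 (edgeR adjusted p = 0.0344; 0.166 without driver control replicate 1). CG45486 to CG45489, which carry consecutive numbers, summed to 37.5, 39.95 and 43.8 CPM in the controls and 48.7, 39.55 and 69.4 CPM in dec2P384R, so their sum overlapped between the groups. CG32726 (FBgn0052726, X, 7425220 to 7425743) rose from 2.87, 1.84 and 8.60 CPM to 21.6, 26.01 and 30.8 CPM (log2 fold change 2.54 ± 0.37, adjusted p = 0.00507). CG14301 (FBgn0038632, 3R, 18629151 to 18641457), with a chitin-binding domain, rose from 1.44, 2.15 and 2.96 CPM to 9.83, 9.75 and 5.57 CPM (log2 fold change 1.95 ± 0.36, adjusted p = 0.0310). Its call held in 5 of 9 fits without 1 library, and the adjusted p reached 0.196 without dec2P384R replicate 2. A second gene with a chitin-binding domain, CG10725, had 1 control count against 57 in the mutants (ratio 78.9, exact 95% interval 13.6 to 3170, counting error only; named after its values were seen). Among 33 tested genes with this domain these 2 rose, and the median was 0.23.

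The largest fitted rise, that of CG42374 (FBgn0259720, 3L, 19263766 to 19266838), came with opposite values in genes at the same place. CG42374 had no control count and 25.1, 15.98 and 4.71 CPM in the mutants, at least 18.7-fold higher (edgeR adjusted p = 0.00407). CG9666, which overlaps it on the same strand, stood at 16.7, 13.2 and 18 CPM in the controls and at 0, 0 and 13.3 CPM in dec2P384R (log2 fold change −1.98 ± 0.84, adjusted p = 0.424). CG45081, the other gene there, stood at 4.30, 8.61 and 4.57 CPM against 0, 0.542 and 7.71 CPM. Summed over the 3 genes the level was 21.0, 21.8 and 22.6 CPM in the controls and 25.1, 16.5 and 25.7 CPM in dec2P384R, so the sum overlapped between the groups while its split among the genes did not stay the same. Genes also overlap on the same strand at the mod(mdg4) locus, over which no sum was taken. This locus encodes chromatin insulator proteins whose ends are joined from separate precursor transcripts. The precursor pre-mod(mdg4)-G, named after its values were seen, had no control count and 42 in the mutants, at least 7.05-fold higher (adjusted p = 0.00486). mod(mdg4) itself had a log2 fold change of 0.22 ± 0.16 (adjusted p = 0.651).

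**Figure D3:**
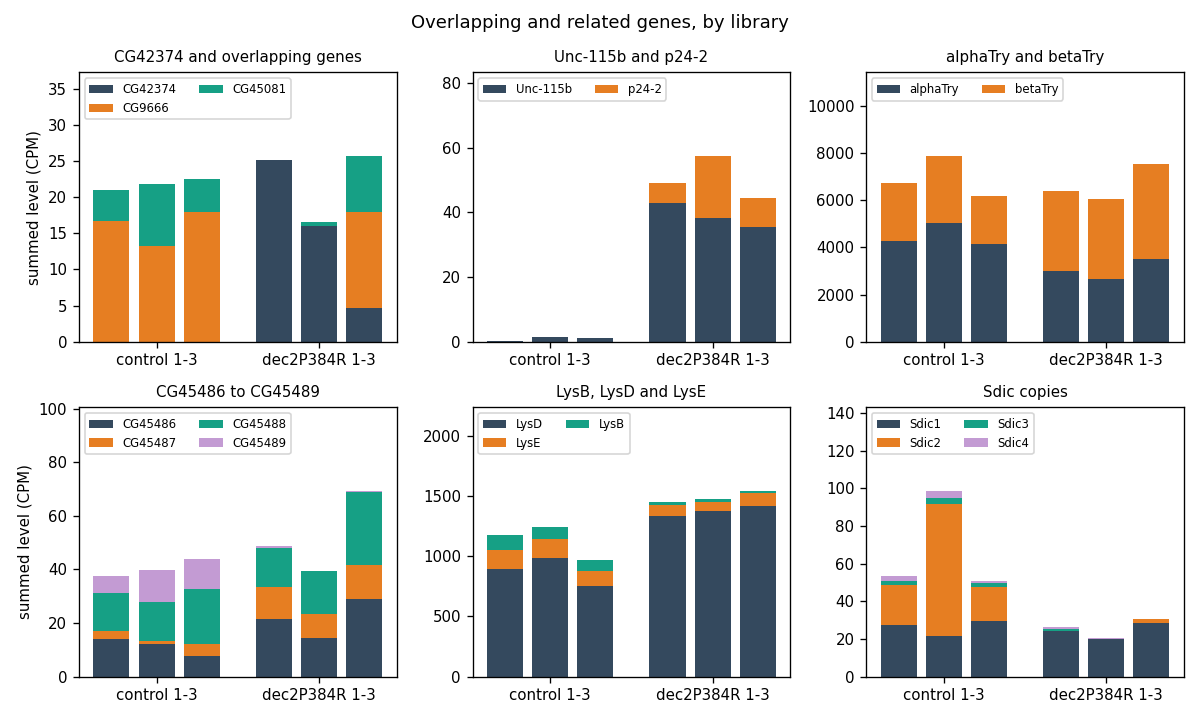
Stacked Nanopore levels in CPM (vertical axes, from 0) of genes that overlap on 1 strand, are close copies or carry consecutive numbers, for control replicates 1 to 3 (left 3 bars) and dec2P384R replicates 1 to 3 (right 3 bars) of each panel. The sums overlap between groups for CG42374 with its overlapping genes and for alphaTry with betaTry. They overlap as well for CG45486 to CG45489, and do not for Unc-115b with p24-2, LysB with LysD and LysE, or the Sdic copies.

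In all, 9 of the 54 genes overlapped another gene on the same strand and 17 overlapped one on the other strand. How often all tested genes overlap another, or stand close together as in the pairs below, was not determined. These numbers are therefore not read as a trait of the calls. Counting was estimated, and values were not whole in at least 1 of the 6 libraries for 87% of the 54 genes and 94% of all tested. The 54 genes were spread over the chromosome arms, with 12 of 2178 tested on 2L, 12 of 2344 on 2R, 9 of 2123 on 3L, 13 of 2781 on 3R and 8 of 1791 on X, and 0 of 78 on chromosome 4. There were 12 pairs within 20000 bases of each other, made up by 16 genes, and 10 of these pairs moved the same way. They were the trypsin cluster, LysP with LysB, CG12224 with CG3397, CG31683 with CG31687, and p24-2 with Unc-115b; the pairs that moved in opposite directions were CG45487 with CG45489 and CG31436 with CG10550.

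The same genotypes were also sequenced on Illumina, 3 libraries each, from RNA whose relation to the Nanopore RNA is not stated. On Illumina 376 of 13418 genes passed (2.8%), 219 higher (1.63%) and 157 lower (1.17%), by limma with Benjamini-Hochberg adjustment on log2(FPKM + 0.5). Of the 54 Nanopore genes, 48 were tested there and 46 had the same direction. The same change passed on both platforms for 37 genes, 16 higher and 21 lower, which is 68.5% of the Nanopore calls and 9.84% of the Illumina calls. In the other view, 233 of the 376 Illumina genes were tested on Nanopore, 207 of them (88.8%) had the same direction, and 125 did so at an unadjusted p under 0.05, against 3 in the opposite direction. How often all genes tested on both platforms had the same direction was not determined. These counts are therefore not read as a trait of the calls.

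gammaTry had an Illumina difference of −2.64 ± 0.20 on that scale, CG12224 of −2.99 ± 0.21, CG17322 of −2.04 ± 0.10, LysP of −1.88 ± 0.24 and PGRP-SC2 of 1.06 ± 0.18, each past the threshold. mthl8 was at 0 FPKM in all controls and at 4.10 ± 0.78 FPKM in dec2P384R (SD, n = 3). CG45489 went the other way, from 0.404 ± 0.145 to 2.52 ± 1.46 FPKM (limma adjusted p = 0.0313, higher), while its Nanopore level fell. For Unc-115b the Illumina difference was 0.29 ± 0.17 (limma adjusted p = 0.488), for isoQC −0.06 ± 0.10 (0.847), for CG31687 −0.09 ± 0.17 (0.860), for Sdic2 −0.10 ± 0.44 (0.946) and for Ubi-p5E −0.21 ± 0.15 (0.594). LysB differed by −0.75 ± 0.18 (0.0591). CG42374, p24-2, Npc2e, CG11714, CG45487 and pre-mod(mdg4)-G were listed at 0 or nearly so and were not tested on Illumina. Of the 9 calls that overlap another gene on the same strand, 5 were tested on Illumina and 2 passed there in the same direction; of the 45 others, 43 were tested and 35 passed. Whether the overlap plays a part in that difference was not tested.

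**Figure D4:**
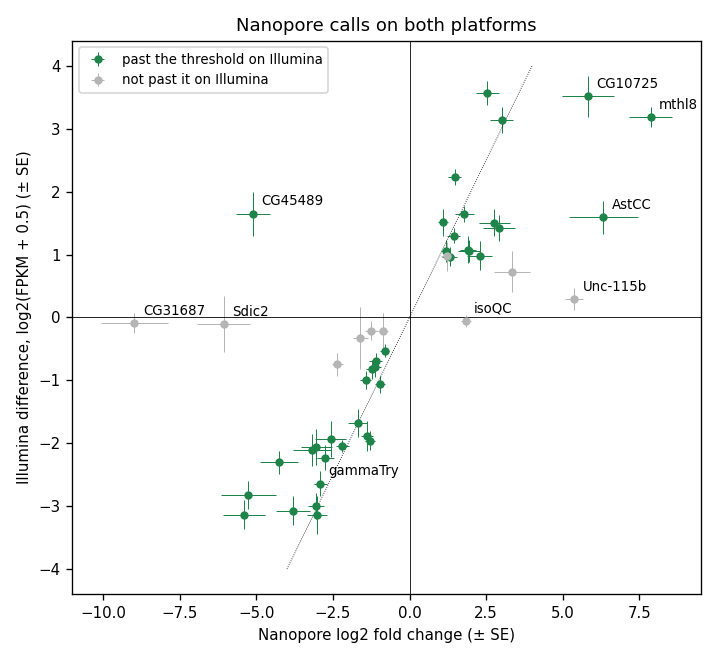
Nanopore log2 fold change (horizontal axis) and Illumina difference on the log2(FPKM + 0.5) scale (vertical axis), each ± SE, for the 48 Nanopore calls that were tested on Illumina. Green points passed on Illumina and grey points did not, and the dotted line marks equal values. CG45489 stands alone in the upper left, with opposite signs, and Unc-115b, isoQC, CG31687 and Sdic2 lie near 0 on Illumina.

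Flies with the normal transgene, dec2WT, show which of these changes differed between the 2 transgenes. The dec2WT and dec2P384R comparisons share the same 3 control libraries, so their values are set side by side and the difference is taken from the direct contrast. Against the controls, 91 of 11393 genes passed in dec2WT (0.799%), 33 higher (0.29%) and 58 lower (0.509%). Of the 54 genes called in dec2P384R, 35 were among these, a count that the shared control libraries can raise. In dec2P384R against dec2WT, 15 genes passed (0.132%), 8 higher (0.0702%) and 7 lower (0.0614%), and 2 of the 54 genes were among them. CG45489 stood at 13.03 CPM on average in dec2WT and at 0.307 CPM in dec2P384R (log2 fold change −5.51, edgeR adjusted p = 0.0017), while CG45486 to CG45489 together summed to 95.8, 84.6 and 107.5 CPM in dec2WT. CG12224 averaged 54.8 CPM in the controls, 19.8 in dec2WT and 6.80 in dec2P384R, with a log2 fold change between the transgenic groups of −1.60 (adjusted p = 0.0364). For 42 of the 54 genes the fitted difference between dec2P384R and dec2WT was under 1 on the log2 scale (77.8%), beside 98.5% of all genes tested. Unc-115b averaged 38.8 CPM in dec2P384R and 39.7 in dec2WT, gammaTry 6.60 and 8.55, LysB 21.5 and 15.97, and CG32726 26.2 and 26.2. In the same order, mthl8 averaged 8.38 and 11.4 CPM, isoQC 90.75 and 133.9, CG17322 5.07 and 6.03, and LysP 50.3 and 33.96. Ugt86Dd averaged 27.8 CPM in dec2P384R and 85.02 in dec2WT, where the 3 libraries were spread widely, and this difference did not pass (log2 fold change −1.61, adjusted p = 0.0982). For PGRP-SC2, at 173 and 108 CPM, the log2 fold change of 0.69 had an adjusted p of 0.103.

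None of the 8 core clock genes, whose products form the feedback loop that times daily rhythms, passed the test at zeitgeber time 3. Their median log2 fold change was 0.03. Clk, the activator of the loop, stood at 41.1, 45.8 and 40.3 CPM in the controls and at 30.5, 28.7 and 25.3 CPM in dec2P384R. The groups did not overlap (log2 fold change −0.59 ± 0.17, unadjusted p = 0.00381, edgeR adjusted p = 0.202). In dec2WT Clk averaged 26.3 CPM. On Illumina Clk was at 11.4 ± 0.76 FPKM in the controls and 11.1 ± 1.5 FPKM in dec2P384R (SD, limma adjusted p = 0.903). The repressor genes tim (32.04, 32.3 and 40.3 CPM against 34.4, 43.4 and 29.1 CPM) and per (5.98, 5.84 and 3.76 CPM against 6.39, 5.15 and 4.28 CPM) overlapped between the groups. Their standard errors were 0.63 for tim and 0.67 for per. In dec2WT replicate 1 tim was at 247 CPM, and without that library they were 0.17 and 0.31, and neither gene passed (adjusted p = 0.958 and 0.999). The signs of the small changes of tim, per and vri turned under some alternatives. The log2 fold changes of cyc, vri, Pdp1, cry and cwo ranged from −0.18 to 0.32. hairy (h), a relative of Dec2 among the fly's repressors, was at 161, 139 and 245 CPM against 89.9, 135 and 135 CPM (−0.60 ± 0.25, adjusted p = 0.406). On Illumina the difference of h was 0.135 ± 0.099 (limma adjusted p = 0.602). The eye colour gene w, often carried as a marker on transgenes, had a Nanopore log2 fold change of 0.57 ± 0.45 (adjusted p = 0.686). That value rested on 41 counts in the controls and 43 in dec2P384R. On Illumina w passed as higher, at 1.71 ± 0.39 FPKM in the controls and 3.98 ± 0.36 FPKM in dec2P384R (SD, limma adjusted p = 0.0035).

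Of 48 gene lists, 6 held at least 1 gene past the test: digestive serine proteases, lysozymes, peptidoglycan recognition proteins, UDP-glycosyltransferases, neuropeptides and methuselah receptors. Some lists without a passing gene still had medians away from that of all genes. Among 14 enzymes that digest starch and sugars, 13 had a positive log2 fold change, 5 at an unadjusted p under 0.05, and the median was 0.46. On Illumina the list's median was 0.441, with none past the test. Amy-d, an amylase, was at 76.5, 219 and 79.3 CPM in the controls and 309, 352 and 246 CPM in dec2P384R (log2 fold change 1.28 ± 0.36, edgeR adjusted p = 0.202), and Amyrel was at 0.478, 4.30 and 3.23 CPM against 18.2, 14.4 and 2.14 CPM (adjusted p = 0.313). The summed level of the list was 2401, 4857 and 3179 CPM in the controls and 4798, 4739 and 2876 CPM in the mutants, so dec2P384R replicate 3 lay among the controls. Without that library the median was 0.63 and none passed, and without driver control replicate 2 it was 0.57 and 1 passed. Replicate 3 of dec2P384R was also the lowest of its group for the storage proteins Lsp1beta and Lsp2. Lsp1beta was at 2.39, 30.7 and 44.3 CPM against 169, 136 and 41.5 CPM (log2 fold change 2.18 ± 0.77, edgeR adjusted p = 0.331). Lsp2 was at 3.11, 67.9 and 210 CPM against 661, 386 and 39.8 CPM (edgeR adjusted p = 0.546). On Illumina both passed as higher, with differences of 2.947 ± 0.568 for Lsp1beta (limma adjusted p = 0.0189) and 2.614 ± 0.551 for Lsp2 (0.0304). Among 4 tested Turandot genes, humoral stress peptides, the median was 0.88 on Nanopore and 0.776 on Illumina, and none passed on either. Their summed Nanopore level in dec2P384R was 650.2, 1112 and 441 CPM. Without replicate 2 of that group the Nanopore median was 0.39, and without driver control replicate 1 it was 0.53.

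The 13 protein-coding transcripts of the mitochondrial genome had a median of −0.47, with 8 lower and 1 higher at an unadjusted p under 0.05 and none past the test. mt:ATPase6 was at 10850, 15460 and 11840 CPM in the controls against 5603, 4162 and 10050 CPM (log2 fold change −0.95 ± 0.28, edgeR adjusted p = 0.214), while mt:ND4L was at 1070, 1072 and 1993 CPM against 2439, 2570 and 1643 CPM (0.69 ± 0.27, adjusted p = 0.378). The mitochondrial genome took 12% to 14.1% of counts in the controls and 9.1% to 11.1% in dec2P384R. For the 86 nuclear genes of the respiratory chain the median was 0.13, with 4 higher and 0 lower at an unadjusted p under 0.05, and it ranged from 0.02 without dec2P384R replicate 3 to 0.21 without dec2P384R replicate 1. On Illumina the medians were −0.032 for 29 tested genes of the mitochondrial genome and −0.096 for 83 nuclear genes, and none passed. Those 29 go beyond the 13 protein-coding genes, so the mitochondrial medians of the platforms cover unlike sets of genes. Heat shock genes code for chaperones induced by stress. On Nanopore their median was −0.87 over 13 genes, with 7 lower at an unadjusted p under 0.05 and none past the test. Driver control replicate 3 stood apart here: Hsp70Ab was at 23.0, 8.61 and 490 CPM in the controls against 1.97, 1.896 and 0 CPM, and Hsp26 at 78.0, 77.4 and 330 CPM against 87.0, 80.2 and 99.3 CPM. Without that library the list's median was −0.34, and the count of all genes past the test was 48. Other members were lower in every mutant library than in every control without a high value in that control, as Hsp22 (261, 164 and 114 CPM against 68.8, 49.3 and 61.2 CPM; log2 fold change −1.60 ± 0.48, edgeR adjusted p = 0.221), or with a smaller one, as stv (129, 142 and 209.6 CPM against 78.1, 83.4 and 113 CPM; adjusted p = 0.215). In 4 of 18 alternative fits 1 heat shock gene passed, as a fall. On Illumina the heat shock list had a median of 0.376 over 10 tested genes, with none past the test. For 25 antimicrobial peptides and related immune genes the median was −0.35 with none past the test, and on Illumina it was 0.66 with 4 of 28 higher. Their summed Nanopore level was 4382, 4757 and 9865 CPM in dec2P384R, and the median was −0.87 without replicate 3 of that group, −0.15 without its replicate 1 and −0.18 without its replicate 2. Without driver control replicate 1 or 2 it was −0.22 or −0.17.

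**Figure D5:**
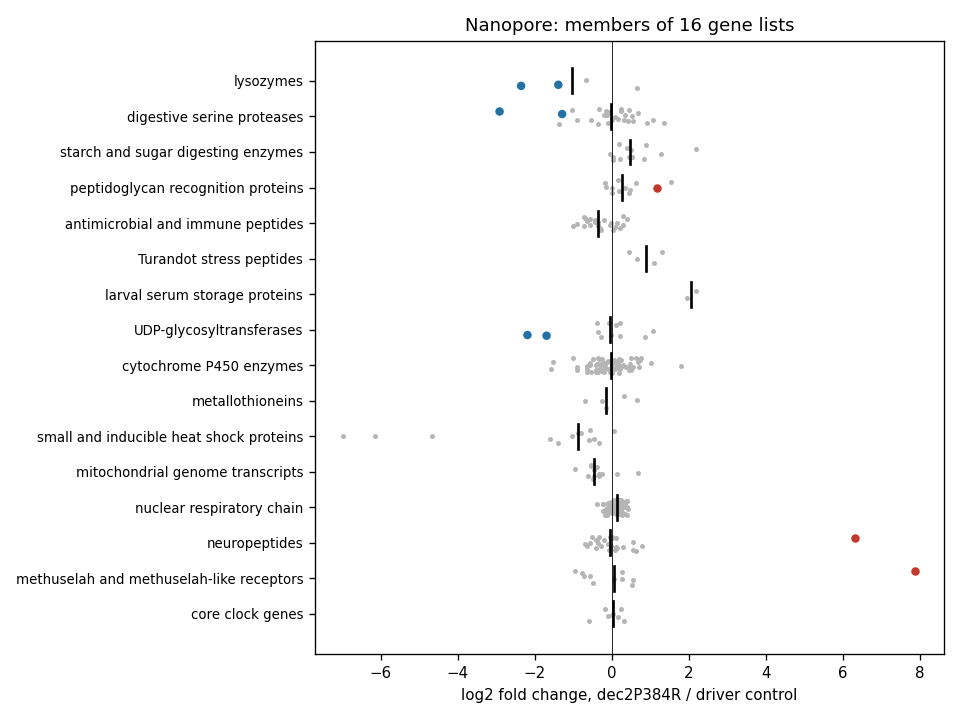
Nanopore log2 fold changes (horizontal axis) of the tested members of 16 gene lists (rows). Grey points did not pass the test, red points rose and blue points fell, and black ticks mark each list's median. Lysozymes, digestive serine proteases and UDP-glycosyltransferases each hold 2 blue points. The 3 points far to the left among the heat shock genes are Hsp70 genes, high in driver control replicate 3.

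Several genes chosen for their change on Illumina did not pass on Nanopore. On Illumina MtnC went from 2.99 ± 0.88 FPKM to 241 ± 93.5 FPKM (SD, n = 3 per group, limma adjusted p = 5.4e-06). Illumina differences were 3.88 ± 0.52 for Obp99b (limma adjusted p = 0.00264), −1.83 ± 0.14 for vanin-like (6.05e-05) and 3.925 ± 0.638 for Lsp1alpha (0.00772). Obp99b and vanin-like had the same direction on both platforms. MtnC, a metallothionein that binds heavy metals, was at 397, 454 and 240.5 CPM in the Nanopore controls and at 241, 336.5 and 401 CPM in dec2P384R, so the groups overlapped, and the sign of its change turned without driver control replicate 2 or dec2P384R replicate 1. Obp99b, an odorant-binding protein of the fat body, had a log2 fold change of 1.64 ± 0.81 (edgeR adjusted p = 0.482), with 136 ± 74.4 CPM in the mutants against 44.0 ± 34.8 CPM (SD, n = 3 per group). vanin-like, a predicted amidase of the pantetheinase family, was at 32.04, 21.5 and 14.2 CPM against 8.85, 13 and 12.8 CPM, without overlap but short of the threshold (log2 fold change −0.95 ± 0.29, adjusted p = 0.232). Lsp1alpha was too low to be tested, at no more than 1.97 CPM in any of the 6 libraries.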

How the data were processed

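Gene expression was measured in 9 Nanopore and 9 Illumina libraries, 3 per genotype and platform. Nanopore libraries were direct cDNA from polyA-selected RNA and Illumina libraries polyA-enriched, per the labels' protocols. Tools listed in the submitters' processing notes, with no role given, are minimap2, Salmon, HISAT2, DESeq2 and featureCounts 1.5.0-p3. Genome build and strand setting are not given in the sources used here, and without strand, reads of a gene and of one on the opposite strand cannot be told apart. Of 17626 identifiers shared with Ensembl BDGP6.54, 99.3% lie at the same coordinates; the deposited positions are printed.

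The Nanopore table deposited by the authors holds estimated counts per gene (55.1% of values not whole, within 1e-09) for 13969 genes. Symbols came from the Illumina table for 13874 of them and from the reference name table for 95. The Illumina table deposited by the authors, whose name speaks of counts, holds FPKM values. The authors also deposited DESeq2 results for Nanopore, with log2 fold changes, adjusted p-values and a mean signal per gene. In the authors' deposited table, 114 genes have an adjusted p-value under 0.05, 58 higher and 56 lower; 49 of them are called here. Columns of other values per library, 54 in all, were not used.

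After rounding, the estimated counts of all 9 Nanopore libraries entered 1 edgeR fit by genotype (version 4.0.16, R 4.3.3), with genes kept by filterByExpr, TMM scaling and the quasi-likelihood F-test. All tests were two-sided, using Benjamini-Hochberg adjustment over 11393 genes and a threshold of 0.05. Standard errors were derived from the F statistic, and CPM use TMM-scaled library sizes. FPKM were tested with limma 3.58.1 (trend) on log2(FPKM + 0.5), keeping genes that reached 0.5 FPKM in 3 or more of the 9 libraries, which understates changes of low genes. Fold bounds against a group without counts use a floor of 3 counts per library; depth limits these to the genes above 0.717 to 1.47 CPM, and bounds and intervals cover counting error only. DESeq2 1.42.0 served as an alternative. The planned edgeR test for Illumina needs counts and was replaced by the limma test. Statistics were tested on simulated data.

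The comparison, the genes and the 48 lists were chosen with earlier results of these data known. Named were up to 15 rises and 15 falls with other than CG or CR symbols (adjusted p under 0.05, mean of at least 5 CPM, no overlap), up to 5 of each with CG symbols, up to 4 passing members per list, 8 clock genes, h, w and 10 genes of the Illumina comparison; others are marked as named after their values were seen. Tissue marker lists were summed per library.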

Additional observations from a re-analysis of the deposited data

How the results depend on the processing

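Of 54 genes past the test, 25 passed in all 18 alternatives, 13 higher and 12 lower. DESeq2 gave 103 genes (49 higher, 54 lower), 42 in dec2P384R against dec2WT, and 12 lists with a passing gene. The count was 55 with median-of-ratios size factors, 66 without a filter on low counts, 53 with a filter of 10 counts, 66 with the 6 libraries alone, 42 after thinning to the shallowest library and 58 with a gene length offset. Deviations of same-numbered libraries from their group means correlated at −0.121, 0.084 and −0.058. The highest correlations of dec2P384R replicates 1, 2 and 3 with any control were 0.134, 0.084 and 0.12. With 3 libraries per group these values cannot exclude a batch shared by replicate number. With a replicate block the count was 39 (17 higher, 22 lower), and with the block and the length offset together 39, of which 15 higher. Leaving out 1 library gave 27 to 70 genes, 14 to 42 higher and 12 to 37 lower. The same omissions gave 10 to 17 genes in dec2P384R against dec2WT, 179 to 354 on Illumina (179 without driver control replicate 2 and 192 without replicate 3), 19 to 43 shared by the platforms and 5 to 10 lists. No gene past the test turned its direction in the alternatives run, and of the other named genes 4 did, none past the test there. per was at −0.54 after thinning, −0.17 without driver control replicate 3 and −0.12 without dec2P384R replicate 1 (log2). tim was at −0.003 after thinning and at −0.018, −0.009 and −0.14 without driver control replicate 1, driver control replicate 2 and dec2P384R replicate 2. Over the omissions of 1 library, the highest values were 0.134 for per and 0.171 for tim, and the lowest were −0.254 for vri and −0.369 for MtnC. With block and length offset, without driver control replicate 2 and without dec2P384R replicate 1, vri was at 0.022, 0.049 and 0.028, and MtnC at 0.024, 0.035 and 0.019. Depth limited the low genes: a floor of 3 counts was 0.717 to 1.47 CPM in the 6 compared libraries, and dec2P384R replicate 1 was the shallowest. The cause of these shifts was not tested.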
